A study of Homo sapiens with 6 samples.

Results

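The subject is a set of 7 genes for subunits of the GABA-A receptor that lie in 3 tandem clusters, out of 19974 protein-coding genes placed on hg38. GABRG1, GABRA2, GABRA4 and GABRB1 lie on chromosome 4, GABRB2 and GABRA6 on chromosome 5, and GABRA5 on chromosome 15. They were chosen by name and position, and each was described by its covered share, the percentage of its RefSeq gene body that fell inside called LaminB1 regions. LaminB1 CUT&RUN, in which an antibody-tethered nuclease releases the chromatin next to its target, marks sequence near the nuclear lamina. The cells were HCT116, a human colorectal carcinoma line in which both TOP2A alleles carry an auxin-inducible degron (mAID). In the double loss group, TOP2A mAID/TOP2B -/- and labelled a TOP2A + TOP2B double knockout, TOP2B was knocked out with CRISPR/Cas9 and 500 uM auxin was present for 8 h; the submitters state that auxin eliminates up to 95% of TOP2A. The control group was TOP2A mAID cells that kept TOP2B and had no auxin, labelled wildtype. A palbociclib block (2 uM over 28 h in all) put cells of both groups in G1. Each group had 2 LaminB1 libraries, each with its own list of called regions, and 1 IgG library. No source used here says whether the replicates were separate cultures or the knockout 1 clone, so p-values measure the spread between these libraries, which may be technical. The comparison asks whether the amount or the place of LaminB1 regions over these genes differed between the groups.

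GABA-A receptors are ligand-gated chloride channels that carry most fast inhibition in the brain. Each receptor is a ring of subunits around a central pore, commonly made of alpha, beta and gamma subunits, with GABA bound between beta and alpha and benzodiazepines between alpha and gamma. Their genes sit side by side in a few clusters that are transcribed mainly in neurons. Large neuronal genes that are silent in other cell types often lie in lamina-associated domains, the stretches of chromatin held at the nuclear edge.

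Promoters are shown first, because the regions over the 5′ end of GABRA2 include its promoter in the lists of 1 group and not in those of the other. RefSeq promoter windows (GRCh38.p14, 250 bases before to 50 after a transcription start) were found for 6 of the 7 genes, 8 windows in all. The window of GABRA2, the alpha-2 subunit, at chr4:46390251-46390550 on the minus strand, lay inside regions in both control lists and in neither double loss list. That of GABRA4, the alpha-4 subunit, at chr4:46993532-46993831 on the minus strand, lay inside a region in double loss 2 and in both control lists, but not in double loss 1. That of GABRB1, the beta-1 subunit, at chr4:47031317-47031616 on the plus strand, lay outside regions in all 4 lists although most of its gene body was covered; it marks a start inside the RefSeq gene body, which begins near the GABRA4 window. That of GABRA6, the alpha-6 subunit, at chr5:161685471-161685770 on the plus strand, lay inside a region in double loss 1 and in control 1, and outside in the other list of each group. They are written 5′ to 3′ with each CG dinucleotide, the site of CpG methylation, in capitals.
GABRA2: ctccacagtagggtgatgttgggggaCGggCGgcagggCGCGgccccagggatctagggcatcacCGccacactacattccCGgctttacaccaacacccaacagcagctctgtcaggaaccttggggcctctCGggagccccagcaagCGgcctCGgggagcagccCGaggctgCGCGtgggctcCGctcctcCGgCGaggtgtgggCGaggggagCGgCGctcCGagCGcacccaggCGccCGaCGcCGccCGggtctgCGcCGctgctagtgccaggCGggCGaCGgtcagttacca
GABRA4: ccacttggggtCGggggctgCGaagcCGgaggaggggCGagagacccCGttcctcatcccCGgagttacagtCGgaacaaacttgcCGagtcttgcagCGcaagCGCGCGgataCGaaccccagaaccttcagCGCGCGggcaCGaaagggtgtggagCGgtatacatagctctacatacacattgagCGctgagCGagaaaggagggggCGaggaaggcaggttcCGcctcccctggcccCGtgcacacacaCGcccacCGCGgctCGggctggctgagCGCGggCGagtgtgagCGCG
GABRB1: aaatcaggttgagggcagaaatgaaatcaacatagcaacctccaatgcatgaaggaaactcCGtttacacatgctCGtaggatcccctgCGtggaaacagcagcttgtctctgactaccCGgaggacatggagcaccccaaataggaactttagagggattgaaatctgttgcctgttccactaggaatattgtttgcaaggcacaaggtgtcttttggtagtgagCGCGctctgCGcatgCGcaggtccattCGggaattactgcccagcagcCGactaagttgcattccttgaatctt
GABRA6: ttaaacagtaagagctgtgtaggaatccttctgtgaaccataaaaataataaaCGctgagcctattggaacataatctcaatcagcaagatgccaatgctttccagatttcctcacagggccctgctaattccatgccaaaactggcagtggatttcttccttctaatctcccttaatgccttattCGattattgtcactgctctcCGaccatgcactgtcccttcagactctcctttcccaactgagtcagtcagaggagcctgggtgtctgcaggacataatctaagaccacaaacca

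The GABRA2 and GABRA4 windows shown were CG-rich, with 30 and 32 CG dinucleotides. Of all 34961 promoter windows on chromosomes 1 to 22 and X, 22.5% and 18.9% hold at least that many. GABRB1 had 10 and GABRA6 had 3, numbers reached by 56.5% and 81.9% of all windows. The median window had 14, and the median of the 1542 windows inside regions in all 4 lists had 3. The 2 further windows of GABRA2, at chr4:46389360-46389659 and chr4:46388986-46389285, lay inside regions in the same lists as the one shown. They were not CG-rich, with 15 and 9 CG dinucleotides, numbers reached by 49.0% and 58.5% of all windows. Across all windows, 278 (0.795%) lay inside regions in both control lists and outside in both double loss lists, and 297 (0.85%) did the opposite. In double loss 2 the nearest region lay 0.45 kb from the GABRA2 window shown, and in double loss 1 it lay 120 kb away. The GABRB2 window, for the beta-2 subunit, lay outside regions in all 4 lists, 1.68 and 17.0 kb from the nearest one in double loss 1 and 2 and 51.7 and 3.03 kb in control 1 and 2. That of GABRG1, the gamma-1 subunit, lay outside regions in all 4 lists, with the nearest one 198 kb away, in double loss 2.

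The lists held 12410 and 12242 regions in the double loss group and 10771 and 13599 in the control group. These regions contained 8151172 and 8351031 LaminB1 reads in the double loss lists and 7374626 and 7263458 in the control lists; reads outside regions are not in them, so the depth of the libraries is unknown. Where both replicates had a region with identical edges, its control library count was the same in 61 of 61 cases for double loss and in 44 of 44 for control, while across groups it was the same in 0 to 2 of 33 to 43 cases. The control library therefore differed by group, and control library, auxin and genotype cannot be told apart. TOP2A, TOP2B, LMNB1 and all 9 intestinal epithelial genes listed, EPCAM and CDH1 among them, had 0% of their bodies in regions in all 4 lists, so the lists hold no check of the perturbation and none of the cell type by its transcripts. Gene bodies were compared with limma over the 3058 protein-coding genes with covered sequence in at least 1 list, and 5 of the 7 genes passed that filter. At an adjusted p under 0.05, limma called 0 of them in either direction and 0 had an unadjusted p under 0.05. Over all genes fitted, 51 (1.67%) were called higher and 30 (0.981%) lower in double loss, and 15.6% had an unadjusted p under 0.05.

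In mean covered share GABRB1 was highest in both groups, GABRA2 was the lowest of the covered genes, and GABRG1 and GABRA5 were at 0% in all 4 lists. GABRA6, the shortest at 16.9 kb, was either mostly covered or not covered at all. In double loss the order was GABRB1, GABRB2, GABRA4, GABRA6, GABRA2, and no neighbours in it differed by more than the sum of their SDs. In control the order was GABRB1, GABRA4, GABRA6, GABRB2, GABRA2. There GABRB1 differed from GABRA4, and GABRB2 from GABRA2, by more than the sum of their SDs, while GABRA6 did not differ from its neighbours. Both double loss lists lay above both control lists for GABRB2 and below both for GABRA2, while the groups overlapped for the others. Over all genes fitted, 21.5% lay above both controls and 13.9% below both.

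**Figure D1:**
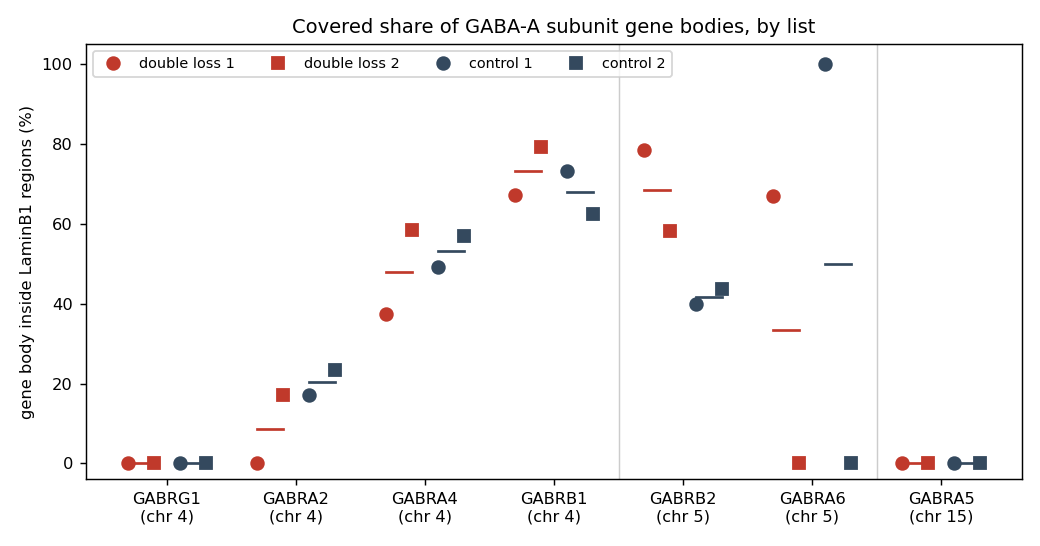
Covered share of each gene body (%) in each list, with double loss in red and control in dark blue; horizontal lines are group means. GABRB2 is the gene whose double loss lists (78.5% and 58.3%) both lie above the control lists (39.8% and 43.7%), and GABRG1 and GABRA5 are at 0% throughout.

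The beta subunits form part of the GABA binding site and are needed for receptors to reach the cell surface. GABRB2, 260 kb long at chr5:161288436-161548404, had 78.5% and 58.3% of its body covered in double loss 1 and 2, against 39.8% and 43.7% in control 1 and 2. Its mean was 68.4% ± 14.3 in double loss and 41.8% ± 2.72 in control (SD, n = 2 each), a difference of 26.6 points that exceeds the sum of the 2 SDs (17.0 points) but did not pass (limma adjusted p = 0.476). Of the 3058 genes fitted, 17.3% had a difference at least this far in the same direction. The difference was 44.9 points when only the regions above the median of the authors' log2 fold in each list were kept, again without passing (limma adjusted p = 0.226). It was 16.5 points without double loss 1 and 36.7 points without double loss 2.

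Gene bodies were then divided into 4 equal parts, from part 1 at the 5′ end to part 4 at the 3′ end. Adjoining parts can share a region, and how often parts separate the groups over all genes was not computed. In parts 2, 3 and 4 of GABRB2 both double loss lists lay above both control lists, and the replicates were closest in part 4. In part 4, 80.7% and 80.0% were covered in the double loss lists, against 44.6% and 40.9% in the control lists. In part 1 the shares were 47.1% and 19.4% in double loss and 17.8% and 19.4% in control, so there the groups were not separated. Sequence called in the 2 double loss lists and in no control list summed to 44 kb of the gene, in 3 stretches, the longest of 19 kb at chr5:161356001-161375000. The opposite kind summed to 3 kb. All 4 lists shared 53 kb, which is 23.2% of the 228 kb called in any list. The Jaccard index, shared over total covered sequence, was 0.664 within double loss, above all values across groups (0.407 to 0.524). Within control it was 0.503, below the 0.524 between double loss 2 and control 1.

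The regions over GABRB2 had a median rank above the middle of each list by the authors' log2 fold of LaminB1 over control library reads. This fold is used here within a list only. Their median percentile was 76.6 and 86.3 in double loss 1 and 2 and 74.6 and 68.0 in control 1 and 2. Single regions ran from 73.5 to 91.9 in double loss 1 and from 72.0 to 90.0 in double loss 2. In control they were mixed, from 41.2 to 99.2 in control 1 and from 34.9 to 97.3 in control 2. They were wider in double loss, 6 and 6 regions with a median width of 27 and 26.5 kb, against 6 and 8 regions with a median of 16.5 and 12 kb in control. Over whole lists the median width was 29 and 29 kb in double loss 1 and 2 and 30 and 22 kb in control 1 and 2. Control library reads per kb in the regions over GABRB2, relative to all regions of the same list, were 0.820 and 0.855 in double loss and 0.857 and 0.860 in control. The same ratio for LaminB1 reads was 0.890 and 0.950 in double loss and 0.922 and 0.889 in control. The part of the control library in the difference was not tested.

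**Figure D2:**
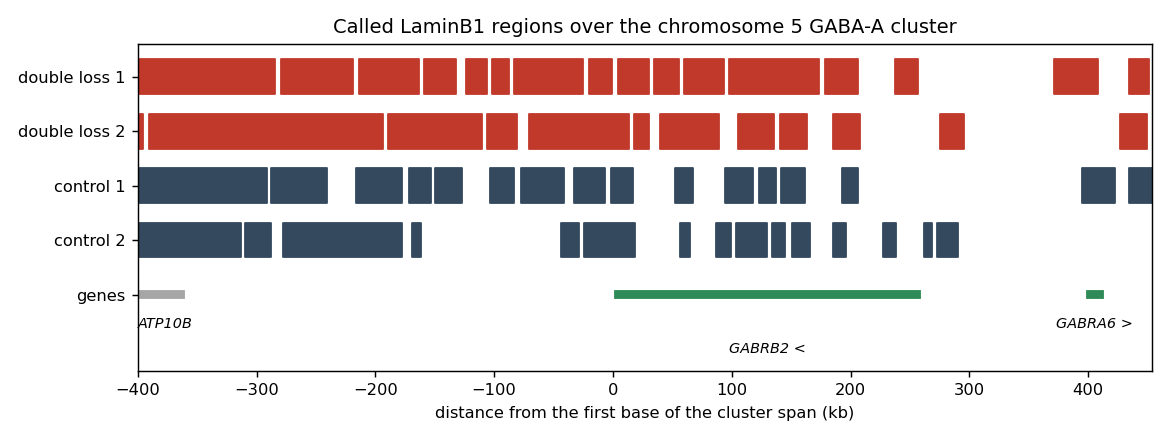
Called regions in each list over the chromosome 5 cluster, drawn to scale against the distance from the first base of GABRB2 (kb), with genes below (green for the receptor genes, grey for others; < and > give the strand). In the 260 kb of GABRB2 the 2 double loss rows are filled over 78.5% and 58.3% and the 2 control rows over 39.8% and 43.7%.

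GABRB1, the longest of the 7 at 433 kb and at chr4:46993647-47426447, was covered to a like degree in all 4 lists. It had 67.1% and 79.3% of its body in regions in double loss 1 and 2, and 73.3% and 62.3% in control 1 and 2. The means were 73.2% ± 8.64 in double loss and 67.8% ± 7.77 in control (SD, n = 2 each), and the difference of 5.39 points was within the spread of the replicates (limma adjusted p = 0.768). All 4 lists shared 160 kb of it, and the longest such stretches ran over 34 kb at chr4:47197001-47231000 and 32 kb at chr4:47132001-47164000. The lists did not pair by group: the Jaccard index, shared over total covered sequence, was 0.738 between double loss 2 and control 1, and 0.645 and 0.558 within double loss and within control. Of its 4 parts, part 1 was the least covered in double loss 1 and 2 (48.8% and 62.1%) and in control 1 (50.1%), and part 3 was the least covered in control 2 (51.0%). With only the regions above the median log2 fold of each list, the difference was 37.7 points (limma adjusted p = 0.210). Without double loss 2 it was -0.723 points and without control 2 it was -0.105 points.

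The alpha subunits set much of the pharmacology of the receptor, and alpha-2, alpha-4, alpha-5 and alpha-6 are made in different sets of neurons. GABRA2, at chr4:46243548-46390300, had 0% and 17.0% of its body covered in double loss 1 and 2, against 17.2% and 23.4% in control 1 and 2. The means were 8.52% ± 12.0 in double loss and 20.3% ± 4.34 in control (SD, n = 2 each), and the difference of -11.8 points was smaller than the sum of the SDs (limma adjusted p = 0.589). The values of double loss 2 and control 1 were nearly equal, and the difference was -3.27 points without double loss 1 and -20.3 points without double loss 2.

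The lists also differed in where the regions lay within GABRA2. In part 1, at the 5′ end, 0% was covered in both double loss lists, against 69.0% and 89.1% in the control lists. In part 2 double loss 2 had 68.1% covered, against 0% in double loss 1 and in control 1 and 4.39% in control 2. Parts 3 and 4 were at 0% in all 4 lists. Sequence called in the 2 control lists and in no double loss list came to 22 kb, in 2 stretches of 11 kb at chr4:46365001-46376000 and chr4:46380001-46391000, of which the second holds the promoter shown above. No sequence of GABRA2 was called in both double loss lists.

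The 20 kb step at chr4:46360001-46380000, inside this 5′ part of GABRA2, was the only step of the 3 spans to pass the test over all 50358 steps fitted. The steps fitted in the spans were 47 on chromosome 4, 19 on chromosome 5 and 0 on chromosome 15. The step that passed was covered at 0% in both double loss lists, against 75% and 80% in control 1 and 2 (difference -77.5 points, limma adjusted p = 0.0476). Over all steps, 591 (1.17%) were called lower in double loss and 861 (1.71%) higher, so 1 call among the steps of the spans is near those shares. The call is close to the threshold. Without control 1 and without control 2 the difference was -80 and -75 points. Both double loss lists were at 0%, so those fits hold no spread within a group and nothing is read from their p-values. With the difference unchanged at -77.5 points, the call was lost without double loss 1 and without double loss 2. It was also lost with untransformed shares (limma adjusted p = 0.0565), with regions up to 5 kb apart joined (0.202), with an equal number of regions (0.683) and with the regions above the median log2 fold, where the step was uncovered in every list. The 2 control regions that lie over this step were of low to middling rank, at the 41.5th percentile of log2 fold in control 1 and the 5.64th in control 2.

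GABRA4, at chr4:46918900-46993581, adjoins GABRB1, the 2 genes run in opposite directions, and the GABRA4 promoter window shown above also holds the first bases of the GABRB1 body. It was covered at 37.5% and 58.4% in double loss 1 and 2 and at 49.1% and 57.0% in control 1 and 2. The means of 47.9% ± 14.8 and 53.1% ± 5.59 (SD, n = 2 each) differed by -5.14 points, within the spread (limma adjusted p = 0.867). The groups did not overlap in the middle parts of the gene and overlapped at both ends. In part 3, 100% and 97.7% were covered in double loss, against 0% and 53.6% in control. In part 2, 46.9% and 35.7% were covered in double loss, against 75.0% and 74.5% in control. In part 1, 0% and 100% were covered in double loss and 94.2% and 100% in control, and in part 4, 3.05% and 0% in double loss and 27.3% and 0% in control. Lists paired only partly by group: the Jaccard index was 0.469 within double loss and 0.558 within control, and 0.119 to 0.554 across groups. The highest value across groups, between double loss 2 and control 2, was above that within double loss and just below that within control. With the regions above the median log2 fold the difference in covered share turned to 29.2 points, and without double loss 1 to 5.29 points.

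GABRA6, at chr5:161685721-161702592, differed more between replicates than between group means, so its values cannot show whether the groups differ. It was covered at 66.9% and 0% in double loss 1 and 2 and at 100% and 0% in control 1 and 2 (limma adjusted p = 0.896 for a difference of -16.6 points). The gene lay under 1 region of 37 kb in double loss 1 and 1 of 28 kb in control 1, and both extended beyond it. The sign turned without double loss 2 (16.9 points) and without control 1 (33.4 points).

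**Figure D3:**
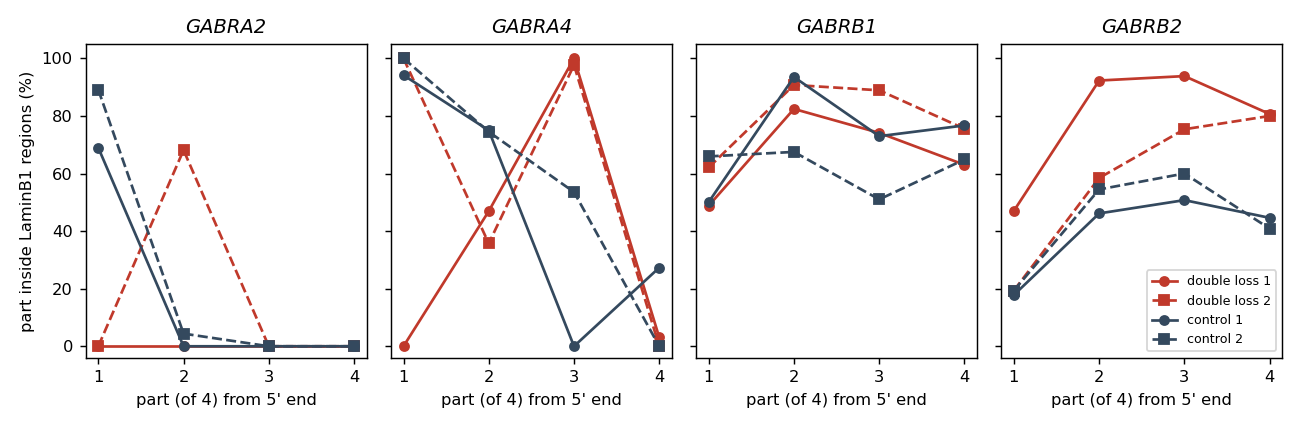
Covered share (%) of each of 4 equal parts of the gene body, counted from the 5′ end, for GABRA2, GABRA4, GABRB1 and GABRB2; red is double loss, dark blue is control, solid for replicate 1 and dashed for replicate 2. GABRA2 is covered at its 5′ end in control (69.0% and 89.1%) and not in double loss, and GABRB2 is covered more in double loss towards its 3′ end.

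GABRA5, the alpha-5 subunit gene at chr15:26866719-26949208, was at 0% in all 4 lists, and so was the sequence within 500 kb on each side. The nearest region at higher coordinates was 18.9 and 6.42 Mb away in double loss 1 and 2 and 18.9 and 18.8 Mb away in control 1 and 2. At lower coordinates it was 7.05 and 7.06 Mb away in double loss 1 and 2 and 6.54 Mb away in control 2, and control 1 had none. Chromosome 15 as a whole had 7.35% and 7.68% covered in double loss and 7.10% and 6.23% in control.

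Gamma subunits give the receptor its benzodiazepine site and help anchor it at synapses. GABRG1, at chr4:46035769-46124054, was also at 0% in all 4 lists, although it lies in the same cluster as GABRA4 and GABRB1. The nearest region lay 387 and 198 kb away in double loss 1 and 2 and 241 and 228 kb away in control 1 and 2, in each list on the GABRA2 side. A value of 0% means that no region was called there, and the lists cannot tell weak LaminB1 signal from none.

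**Figure D4:**
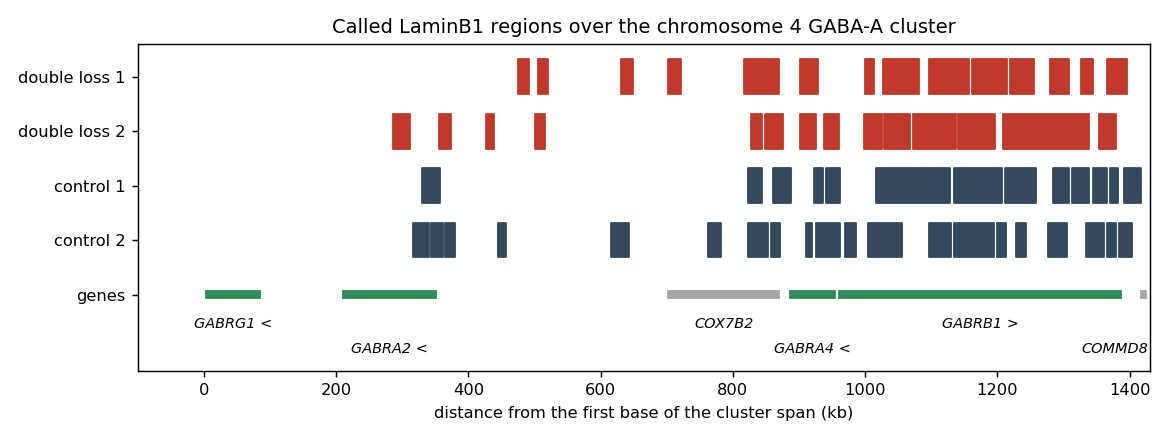
Called regions in each list over the chromosome 4 cluster, drawn to scale against the distance from the first base of GABRG1 (kb), with genes below (green for the receptor genes, grey for others; < and > give the strand). GABRG1 is free of regions, the 5′ end of GABRA2 is covered in the 2 control rows only, and GABRB1 is covered over 62.3% to 79.3% in all 4 rows.

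The chromosome 4 span, 1391 kb from GABRG1 to GABRB1, split into a part with few regions and a part rich in them. Of its 71 steps of 20 kb, 24 were at 0% in all 4 lists and 21 were covered to some extent in all 4. The whole span was covered at 31.7% and 36.0% in double loss 1 and 2 and at 30.6% and 33.8% in control 1 and 2, a difference of 1.65 points that was within the spread (exact permutation p = 0.667, two-sided). It was -0.523 points without double loss 2, 3.83 points without double loss 1, 0.0918 points without control 1 and 3.22 points without control 2. Of the 47 steps fitted, 7 lay above both control lists in double loss (14.9%) and 7 lay below both (14.9%), beside 14.1% above and 9.8% below over all steps fitted. Sequence called in the 2 double loss lists and in no control list summed to 35 kb, and the opposite kind to 41 kb. The Jaccard index was 0.512 within double loss and 0.491 within control, and 0.428 to 0.563 across groups, a range that holds both within-group values. With the regions above the median log2 fold the span differed by 15.1 points. Chromosome 4 as a whole was covered at 25.4% and 26.2% in double loss and at 21.3% and 19.1% in control.

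The chromosome 5 span, 414 kb from GABRB2 to GABRA6, was covered at 58.2% and 41.4% in double loss 1 and 2, against 29.7% and 33.5% in control 1 and 2. The means were 49.8% ± 11.9 in double loss and 31.6% ± 2.63 in control (SD, n = 2 each). The difference of 18.2 points exceeded the sum of the SDs (14.5 points), and 2 of the 6 assignments of libraries give a difference at least as large, which is the smallest p that an exact two-sided permutation test of 2 against 2 libraries can give. Without double loss 1 the difference was 9.83 points and without double loss 2 it was 26.6 points. Of the 19 steps fitted, 6 lay above both control lists in double loss (31.6%, beside 14.1% over all steps fitted) and 0 below both (beside 9.8%); all 6 lie in GABRB2, and neighbouring steps can share a region. Limma called 0 of the 19 at an adjusted p under 0.05, and 3 had an unadjusted p under 0.05, as did 12.6% of all steps fitted. The largest gap was in the step at chr5:161360001-161380000, at 100% and 90% in double loss against 0% and 25% in control (limma adjusted p = 0.308). Over the span the Jaccard index was 0.524 within double loss and 0.384 within control. Across groups it was 0.319 to 0.440, a range that holds the value within control. Adding 500 kb on each side gave 64.3% and 59.9% in double loss against 53.8% and 42.3% in control, while chromosome 5 as a whole was at 27.7% in both double loss lists and at 27.7% and 25.4% in control.

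**Figure D5:**
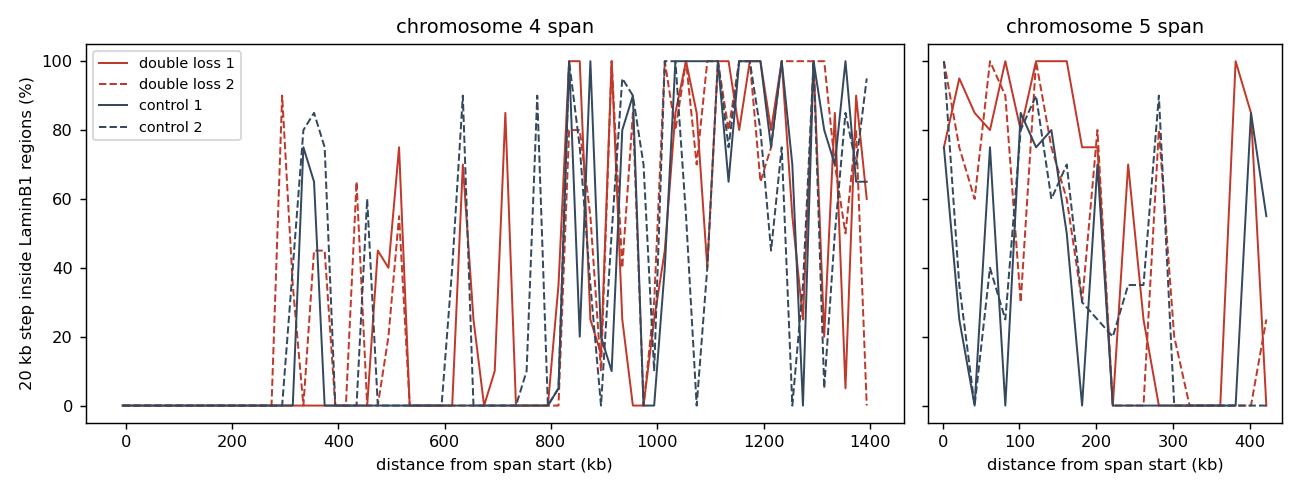
Covered share (%) of each 20 kb step along the chromosome 4 and chromosome 5 spans, against the distance from the span start (kb); red lines are double loss, dark blue lines are control, solid for replicate 1 and dashed for replicate 2. On chromosome 4 both double loss lines stay at 0% in the step where the controls reach 75% and 80%, and on chromosome 5 the double loss lines lie above both control lines in 6 of the 19 steps fitted, all over GABRB2, with equal or overlapping values in the others.

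Genes with the most similar pattern were found among 2240 protein-coding genes of at least 20 kb outside the clusters, by the Euclidean distance over the 4 covered shares. For GABRB2 they were PCDHA4, PCDHA3 and PCDHA2, clustered protocadherin genes on another part of chromosome 5 that overlap each other, at distances of 8.58, 8.65 and 9.93 points. PCDHA4 was at 82.0% and 61.1% in double loss 1 and 2 and at 32.6% and 42.4% in control 1 and 2. For GABRB1 they were NCKAP5 (6.80 points), PTH2R (7.65 points) and RFTN1 (8.33 points). For GABRA4 they were ADARB2 (10.2 points), ITGBL1 (10.6 points) and ADCY2 (11.5 points), and for GABRA2 they were IL16 (8.50 points), IFT74 (10.3 points) and PRDM2 (10.6 points). The match for GABRA6 was CFAP418 (9.47 points), then CD28 (16.1 points) and AMY2B (17.7 points). These are descriptions over 4 lists.

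Most other genes of GABA signalling had no covered sequence, as was the case for most protein-coding genes. Of 10 receptor subunit genes that lie outside the 3 clusters, metabotropic GABA-B subunits included, 9 were at 0% in all 4 lists. The exception was GABRP, the pi subunit, at 0% in both double loss lists and at 36.0% and 0% in control 1 and 2. Of 9 genes for GABA synthesis, breakdown and transport, 7 were at 0% throughout. Of 17 scaffold, trafficking and auxiliary genes, 15 were at 0%, among them GPHN, the gene of the synaptic scaffold gephyrin. Of all protein-coding genes, 15.3% had covered sequence in at least 1 list, so these counts are near those of genes in general. Of the 7 clustered genes, 5 had it. These shares were not matched for gene length, and the 7 genes run from 16.9 to 433 kb. None of the 3 lists had a member called by limma at an adjusted p under 0.05; 1 member, GAD2, had an unadjusted p under 0.05. The 2 scaffold and trafficking genes with coverage were PLCL1 and PLCL2. With 1 or 2 covered members a list, GABRP and ABAT each covered in 1 library only, no list median was read against all genes.

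GAD2, which encodes the synaptic glutamate decarboxylase that makes GABA, had the widest gap of the covered members of these lists. It lies at chr10:26216372-26304558 and was covered at 29.1% and 11.3% in double loss 1 and 2, against 91.4% and 85.3% in control 1 and 2. The means were 20.2% ± 12.5 in double loss and 88.3% ± 4.36 in control (SD, n = 2 each), a difference of -68.1 points that did not pass over all genes (limma unadjusted p = 0.0109, adjusted p = 0.145). Of all genes fitted, 2.03% had a difference at least this far in that direction. All its regions ranked below the middle of their lists by log2 fold, at percentiles of 0.516 and 22.8 in double loss, 44.1 in control 1 and 26.1 to 28.4 in control 2, so keeping the regions above the median left the gene uncovered in every list. Control library reads per kb there, relative to all regions of the list, were 1.09 and 1.19 in double loss and 0.919 and 0.975 in control; their part in the difference was not tested. ABAT, the enzyme that breaks GABA down, was at 24.6% and 0% in double loss and at 0% in both controls. PLCL1 and PLCL2, which bind GABA-A beta subunits during trafficking, were covered at 90.9% and 96.4%, and at 94.6% and 76.6%, in double loss, against 98.3% and 98.5%, and 87.4% and 79.1%, in control.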

How the data were processed

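LaminB1 CUT&RUN libraries of 2 groups were analysed, and read pairs were 75 bp long, per the labels' protocols. Bowtie2 2.3.4.3, Picard and hg38 are named in the submitters' processing notes; the region caller is not given in the sources used here. The 4 lists, 1 per LaminB1 library, were assigned by genotype and replicate number in their names, and the 2 IgG libraries were not used as samples. Per the file headers, the deposited columns are whole-number counts of LaminB1 and of control library reads per region, raw and adjusted p-values, a log2 fold and a score. On the values, the deposited score is 100 times the log2 fold, which is log2 of LaminB1 over control counts shifted by 1 constant in each list. Regions off chromosomes 1 to 22 and X, 1 or 2 per list, were left out.

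Covered shares were computed with Python 3.11.15, numpy 2.4.6 and pandas 2.3.3 on the 1 kb grid of the lists, with gene bodies from the RefSeq table of GRCh38.p14, which shares its coordinates with hg38. Coordinates count from 1. Shares of gene bodies (covered in at least 1 list) and of 20 kb steps (at least 5% covered in 1 list) were arcsine square root transformed and compared in R 4.3.3 by limma 3.58.1, with trended variance and Benjamini-Hochberg adjustment over all features fitted, at a threshold of 0.05. Spans were compared by exact permutation over the 6 assignments of libraries. Fits and coverage arithmetic were tested on simulated data. The simulated noise was smaller than the spread between double loss replicates of each covered gene here, so it gives no error rate for these data. Named genes were the 7 genes, covered members of the GABA lists, coding genes within 500 kb of a span, the 3 genes nearest in pattern per gene, and TOP2A, TOP2B and LMNB1; GPHN, EPCAM and CDH1 were named after their values were seen. The members and lists were chosen with earlier results of these data known. A few subunit genes of these clusters are not reported here. Among the alternatives were fits without 1 library, with a block on replicate number, with filtered or joined regions, and with other bins, flanks, filters and scale. Replicate numbers were not used as pairs in the main fits. Deviations of same-numbered libraries from their group means correlated at -0.0198 over gene bodies, which does not show whether they were prepared together.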

Additional observations from a re-analysis of the deposited data

How the results depend on the processing

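None of the 5 covered genes passed limma under any of the 12 alternative fits (adjusted p from 0.185 to 1). Leaving out double loss 1, double loss 2, control 1 and control 2 gave 373, 348, 155 and 115 genes called higher in double loss and 121, 118, 238 and 265 called lower, against 51 and 30 with all libraries, so ranges were 115 to 373 and 118 to 265. For 20 kb steps the ranges were 2480 to 6483 higher and 3011 to 3821 lower. With the replicate block limma called 0 genes and 0 steps in either direction, with 328 and 4805 at an unadjusted p under 0.05; the GABRA2 step was then at an adjusted p of 0.418. The correlation of same-numbered libraries was near 0, but this cannot show whether they were prepared together. Whether the fit with or without the block suits these libraries is therefore not known. With 10 kb added to genes limma called 0 in either direction (543 at an unadjusted p under 0.05). Equal numbers of regions gave 26 genes higher, and 0 steps in either direction (5287 at an unadjusted p under 0.05); untransformed shares gave 0 steps (6038). Joined regions gave 46 genes lower. Bins of 10 kb gave 2633 higher and 1745 lower, and bins of 50 kb gave 280 and 195. With the regions above the median log2 fold the chromosome 4 and 5 spans differed by 15.1 and 29.7 points, against 1.65 and 18.2 points. Leaving out 1 library gave -0.523 to 3.83 points on chromosome 4, with the sign turned without double loss 2, and 9.83 (without double loss 1) to 26.6 points (without double loss 2) on chromosome 5. The other alternatives gave 0.431 to 3.83 points on chromosome 4 and 14.1 points or more on chromosome 5. The cause of these changes was not tested. Fits with no filter on covered sequence could not be fitted. Limits: 2 lists per group, called regions only, and no library depth.

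A fit without 1 library has 1 sample in an arm, which limma assumes to vary like the other group. Such fits put PLCL1 past the threshold without double loss 2 (adjusted p = 0.0307), and ABAT without double loss 2 (0.00335) and COMMD8 and GABRP without control 2 (0.0138 each). The last 3 genes are covered in 1 library only, so leaving out its replicate at 0% fixes that outcome and nothing is read from it. Signs of single genes turned, none past the threshold, as follows. With 1 library left out, GABRA4 ranged from -15.6 points (without double loss 2) to 5.29 (without double loss 1), and GABRA6 from -66.6 (without control 2) to 16.9 (without double loss 2) and 33.4 (without control 1). GABRB1 was at -0.723 without double loss 2 and -0.105 without control 2. ATP10D ranged from -15.0 (without double loss 1) to 15.9 (without double loss 2), with -1.61 without control 1. COX7B2 ranged from -4.23 (without double loss 1) to 12.8 (without double loss 2), with -3.94 without control 1. PLCL2 ranged from -6.58 (without double loss 1) to 11.4 (without double loss 2), with -1.72 without control 2. With the regions above the median GABRA4 was at 29.2, COX7B2 at -4.87 and ATP10B at 0.410 points. With joined regions ATP10B was at 0.410 and PLCL2 at -0.509 points. The GABRA2 promoter difference was -100 points with all regions and -50 points with those above the median.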

Other observations

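Each of the 3 clusters has a gene of the ATP10 phospholipid flippase family on the same chromosome, and their coverage differed widely. ATP10B on chromosome 5 was covered at 94.3% and 92.9% in double loss 1 and 2 and at 95.4% and 94.3% in control 1 and 2. ATP10D on chromosome 4 was at 30.9% and 0% in double loss and at 12.9% and 17.1% in control. ATP10A on chromosome 15 was at 0% in all 4 lists, as was GABRA5 near it. Limma called none of the 2 covered flippase genes at an adjusted p under 0.05, and 0 had an unadjusted p under 0.05.

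Among the other coding genes within 500 kb of the chromosome 4 span, CORIN, the protease that activates atrial natriuretic peptide, was at 28.7% and 54.5% in double loss 1 and 2, against 22.9% and 14.8% in control 1 and 2 (limma adjusted p = 0.589). COX7B2, a cytochrome c oxidase subunit gene between GABRA2 and GABRA4, was at 40.7% and 23.6% in double loss and at 19.6% and 36.1% in control. COMMD8 was at 0% in both double loss lists and at 17.1% and 0% in control 1 and 2, and NFXL1 was at 0% in all 4 lists.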
